A study of Homo sapiens with 10 samples.

Results

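The genes described are the long noncoding RNA (lncRNA) genes expressed in HCT116 cells, other than the best known nuclear lncRNAs and the snoRNA host genes. A gene was taken when its deposited biotype was lncRNA and its FPKM, summed over its transcripts, averaged at least 1 over the 4 libraries of a table. FPKM is a level corrected for the length of the transcript and the size of the library. NEAT1, MALAT1, TUG1, NORAD, KCNQ1OT1, OIP5-AS1, GAS5, ZFAS1, EPB41L4A-AS1 and names starting with SNHG were left out, which removed 29 or 30 genes per table. In all, 1187 of the 18034 genes listed met the rule in at least 1 table. There were 731 members of 15586 genes in the table of DMSO and EPZ, 1046 of 17280 in that of EV and WT, and 1061 of 17582 in that of EV and K56A. Of these, 624 were members in all 3 tables. The members were chosen by their measured level (mean FPKM), so levels are given as a description with no test. In the inhibitor table the members nearest the limit were AC036176.1 and AL604028.1, both at a mean of 1.00 FPKM, and the nearest genes outside were AC005229.3 at 0.999 and USP46-DT at 0.994.

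All 10 libraries came from HCT116, an established human colorectal carcinoma line, in 5 groups of 2. In the inhibitor experiment, cells of control genotype received DMSO or EPZ-5676, an inhibitor of the histone methyltransferase DOT1L, at 10 µM for 72 h (EPZ). In the knockdown experiment every line carried an shRNA against CDK9 and received no drug. These lines are EV, an abbreviation that the labels do not expand, WT, in which wild-type CDK9 was put back, and K56A, in which CDK9 with alanine for lysine 56 was put back. CDK9 stood at 16.4 and 19.4 FPKM in EV against 3060 and 2976 in WT, and at 16.3 and 19.4 in EV and 2609 and 2499 in K56A in the other table. In DMSO it stood at 43.9 and 37.6 and in EPZ at 41.9 and 38.5, so WT and K56A carried far more CDK9 mRNA than the cells of control genotype. DOT1L stood at 12.6 and 12.5 FPKM in DMSO against 10.7 and 10.4 in EPZ. In the knockdown experiment it stood at 324 and 343 in EV, at 578 and 568 in WT and at 733 and 702 in K56A. The labels mention neither the difference between experiments nor that between lines. Against EV, its log2 fold change was 0.78 in WT (limma adjusted p = 0.000697) and 1.11 in K56A (limma adjusted p = 0.000119). So WT and K56A differed from EV in DOT1L mRNA as well as in CDK9, and the design cannot tell the 2 apart. No label says whether replicates were separate cultures, so p-values measure only the spread between these libraries, which may be technical.

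An lncRNA gene is transcribed by RNA polymerase II like a coding gene, and its RNA is often spliced and polyadenylated, but it is not known to encode a protein. Many lie antisense to a coding gene (names in -AS) or start beside a coding promoter and run the other way (names in -DT), and some carry microRNAs in their transcripts (names in MIR and HG). DOT1L methylates histone H3 at lysine 79 in transcribed genes, and CDK9 is the kinase of P-TEFb, which frees RNA polymerase II from its pause near the start of genes. The comparisons ask how lncRNA levels stand when DOT1L is inhibited, and when wild-type or mutant CDK9 is put back into knockdown cells.

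Promoters are shown for 2 of the most abundant members, SLC9A3-AS1 and THAP9-AS1, and for 2 of the members with the smallest p in K56A versus EV, JPX (above EV) and SPRY4-AS1 (below EV). They were picked with the values known, among members with an entry in the RefSeq promoter table (GRCh38.p14), where 353 of the 1187 members (29.7%) were matched by symbol. Each runs 5′ to 3′ on the strand of the gene, over 300 bases around its RefSeq start. Capitals mark a match, on either strand, to 1 of 6 motifs: the AP-1 motif TGACTCA, the CRE motif TGACGTCA, the E-box CACGTG, the TATA box TATAAA, the CCAAT box and the GC box GGGCGG. The regions are chr5:472986-473285 on the plus strand, chr4:82900867-82901166 on the minus strand, chrX:73944074-73944373 on the plus strand and chr5:142325043-142325342 on the plus strand, in the order printed.
SLC9A3-AS1: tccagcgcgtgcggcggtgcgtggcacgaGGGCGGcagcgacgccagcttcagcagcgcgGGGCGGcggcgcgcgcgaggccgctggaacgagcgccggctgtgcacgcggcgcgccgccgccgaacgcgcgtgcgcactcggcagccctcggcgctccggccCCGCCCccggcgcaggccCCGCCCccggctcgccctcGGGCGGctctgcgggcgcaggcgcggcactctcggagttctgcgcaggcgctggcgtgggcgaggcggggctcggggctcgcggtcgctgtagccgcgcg
THAP9-AS1: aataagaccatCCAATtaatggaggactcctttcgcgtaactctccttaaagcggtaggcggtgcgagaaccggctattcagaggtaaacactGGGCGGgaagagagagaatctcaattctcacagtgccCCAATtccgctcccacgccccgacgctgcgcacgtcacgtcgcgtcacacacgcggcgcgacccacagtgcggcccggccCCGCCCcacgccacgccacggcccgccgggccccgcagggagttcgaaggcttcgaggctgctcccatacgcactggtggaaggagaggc
JPX: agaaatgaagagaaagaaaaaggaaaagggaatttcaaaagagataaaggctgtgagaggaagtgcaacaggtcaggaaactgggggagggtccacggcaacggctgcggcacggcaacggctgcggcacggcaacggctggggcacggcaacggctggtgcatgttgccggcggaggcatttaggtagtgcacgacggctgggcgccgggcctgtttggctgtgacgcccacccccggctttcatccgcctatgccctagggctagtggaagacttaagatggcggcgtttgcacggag
SPRY4-AS1: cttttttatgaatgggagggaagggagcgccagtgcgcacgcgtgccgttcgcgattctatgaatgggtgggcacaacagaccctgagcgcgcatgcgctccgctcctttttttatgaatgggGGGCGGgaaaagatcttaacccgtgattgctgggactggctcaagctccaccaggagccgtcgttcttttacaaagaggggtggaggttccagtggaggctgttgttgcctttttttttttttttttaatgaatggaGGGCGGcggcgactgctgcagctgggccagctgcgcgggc
The GC box was matched 5 times in SLC9A3-AS1, 2 times in THAP9-AS1 and 2 times in SPRY4-AS1, and CCAAT 2 times in THAP9-AS1. Of the 35116 promoters in the table, 45.0% hold GGGCGG and 34.6% hold CCAAT. None of the 6 motifs is in the JPX window, which says only that these letters are not there. The AP-1 motif, CRE, E-box and TATA box, held by 4.95%, 1.85%, 7.26% and 11.5% of all promoters, were matched in none of the 4. GC content was 82.3% for SLC9A3-AS1, 63.3% for THAP9-AS1, 59.7% for JPX and 55.7% for SPRY4-AS1.

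MicroRNAs carried by 5 host genes among the members are shown because the microRNA is the best known product of such a gene. They are from RefSeq (GRCh38.p14), found by position within the host and on its strand, and capitals mark the seed, bases 2 to 8. Of 21 hosts looked up, 20 held at least 1 mature microRNA. The first 6 lie in MIR17HG on chromosome 13, where miR-17 and miR-20a share a seed, as do miR-19a and miR-19b. The next 2 lie in MIR222HG on chromosome X and share a seed. The following 3 lie in MIR100HG on chromosome 11, where the seed of let-7a is also that of let-7 members in MIRLET7A1HG and MIRLET7BHG. The last lines are from MIR200CHG on chromosome 12 and MIR34AHG on chromosome 1.
hsa-miR-17-5p: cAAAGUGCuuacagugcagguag
hsa-miR-20a-5p: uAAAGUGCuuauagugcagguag
hsa-miR-18a-5p: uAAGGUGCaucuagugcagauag
hsa-miR-19a-3p: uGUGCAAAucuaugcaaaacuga
hsa-miR-19b-3p: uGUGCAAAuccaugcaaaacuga
hsa-miR-92a-3p: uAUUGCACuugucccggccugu
hsa-miR-221-3p: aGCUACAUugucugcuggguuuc
hsa-miR-222-3p: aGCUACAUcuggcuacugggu
hsa-let-7a-5p: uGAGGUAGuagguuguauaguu
hsa-miR-100-5p: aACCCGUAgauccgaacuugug
hsa-miR-125b-5p: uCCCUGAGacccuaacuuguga
hsa-miR-200c-3p: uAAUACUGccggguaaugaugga
hsa-miR-141-3p: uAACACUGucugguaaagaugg
hsa-miR-34a-5p: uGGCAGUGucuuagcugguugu
Only the host transcripts were measured, since mature microRNAs are too short for mRNA libraries.

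The tables hold no counts, so depth is unknown and no counting interval can be given. Transcripts above 0 numbered 54216 in DMSO replicate 1, against 59403 to 59913 in the other libraries of that table. Across members, the log2 levels of the DMSO replicates had r = 0.891, against 0.946 for EPZ and 0.936 to 0.955 in the knockdown tables, where the points are genes and not independent replicates. DMSO replicate 1 stands apart in this. Of 10 colon epithelium markers 7 were listed, and CDX1, LGALS4 and VIL1 were not. Their sum was 2058 to 2170 FPKM in DMSO and 2027 to 2181 in EPZ, which overlap. It was 1469 to 1504 in EV, above 1370 to 1371 in WT, and 1468 to 1503 in EV, above 1436 to 1439 in K56A. Of 5 blood markers only CD14 was listed, at up to 0.390 FPKM, and 3 of 4 endothelial markers summed to at most 0.618. Of 3 neural markers only SNAP25 was listed, at 1.24 to 1.37 FPKM in DMSO and 2.04 to 2.32 in EPZ. Of 5 fibroblast markers only COL1A1 was listed, at 19.3 to 20.1 in DMSO, 19.8 to 23.1 in EPZ, 27.4 to 29.9 in EV, 33.1 to 34.1 in WT and 34.5 to 36.2 in K56A. The part of these markers in the results was not tested.

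Most members were low. The median member had a mean of 2.24, 2.28 and 2.23 FPKM in the inhibitor, WT and K56A tables, against 13.1, 10.8 and 10.9 for all genes tested, which are those with a mean of at least 1. Members at 10 FPKM or more numbered 58, 86 and 87, and the 10 most abundant held 10.9, 12.2 and 12.2% of the summed FPKM of all members. By name, 50.5% to 55.8% of members carried a clone-based name such as AC105460.1, 18.5% to 22.2% an antisense name, 9.85% to 10.3% a LINC number and 1.70% to 1.92% a microRNA host name. About equal numbers had 1 listed transcript (379, 536 and 528 members) and several, up to 46 for PVT1.

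UCA1, an lncRNA first described in bladder cancer, was the most abundant member of the inhibitor table (chromosome 19, ENSG00000214049). Its level was 48.7 and 50.5 FPKM in DMSO against 36.6 and 41.7 in EPZ. In the knockdown experiment it was 62.6 and 60.3 FPKM in EV against 70.5 and 63.1 in WT, and in the other knockdown table it was 62.6 and 58.2 FPKM in EV against 64.1 and 64.0 in K56A. Both EPZ libraries lay below both DMSO libraries, with a log2 fold change of -0.34 (95% interval -0.62 to -0.06, limma adjusted p = 0.753), and the difference did not pass the test.

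THAP9-AS1, antisense to the transposase-derived gene THAP9, stood at 30.7 and 37.1 FPKM in DMSO against 34.9 and 39.1 in EPZ, at 58.7 and 56.9 in EV, at 65.1 and 66.1 in WT and at 58.3 and 65.4 in K56A. THAP9 itself ranged from 1.316 to 2.26 FPKM over all libraries, far below its antisense neighbour. SLC9A3-AS1, antisense to the sodium and proton exchanger gene SLC9A3, stood at 43.5 and 37.3 FPKM in DMSO against 42.1 and 38.7 in EPZ, at 45.4 and 47.2 in EV and 45.2 and 46.0 in WT. In the K56A table it stood at 45.4 and 47.4 in EV and 53.03 and 54.1 in K56A, where the groups did not overlap, with a log2 fold change of 0.21 (95% interval 0.09 to 0.32, limma adjusted p = 0.198). SLC9A3 ranged from 0.386 to 0.731 FPKM. PAX8-AS1 was likewise above PAX8, a transcription factor gene, at 21.3 to 47.1 against 0.929 to 2.32 FPKM.

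Levels of the inhibitor and knockdown experiments cannot be tested against each other, because the tables were normalized separately and each lists its own transcripts. Even between the knockdown tables, which share their EV libraries, the EV mean differed by over 5% for 114 of 1013 shared members. Side by side, AC015813.1 on chromosome 17 was the most abundant member of the knockdown tables, at 77.8 to 87.5 FPKM, and stood at 12.2 to 18.7 in DMSO and EPZ. PVT1, the lncRNA gene beside MYC, stood at 59.8 to 74.1 in the knockdown lines and 19.2 to 30.6 in DMSO and EPZ. Its sum took in 44 and 46 listed transcripts in the knockdown tables, while no member had over 18 in the inhibitor table. OLMALINC was in the opposite order, at 18.6 to 21.2 in the knockdown lines and 27.2 to 34.3 in DMSO and EPZ. LINC01002, MUC20-OT1 and STAG3L5P-PVRIG2P-PILRB, also among the 10 most abundant, have near-identical copies or continue from neighbouring genes, so their values are uncertain. The strand setting of the counting is not given in the sources used here, and reads of genes that overlap on opposite strands cannot be told apart.

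**Figure D1:**
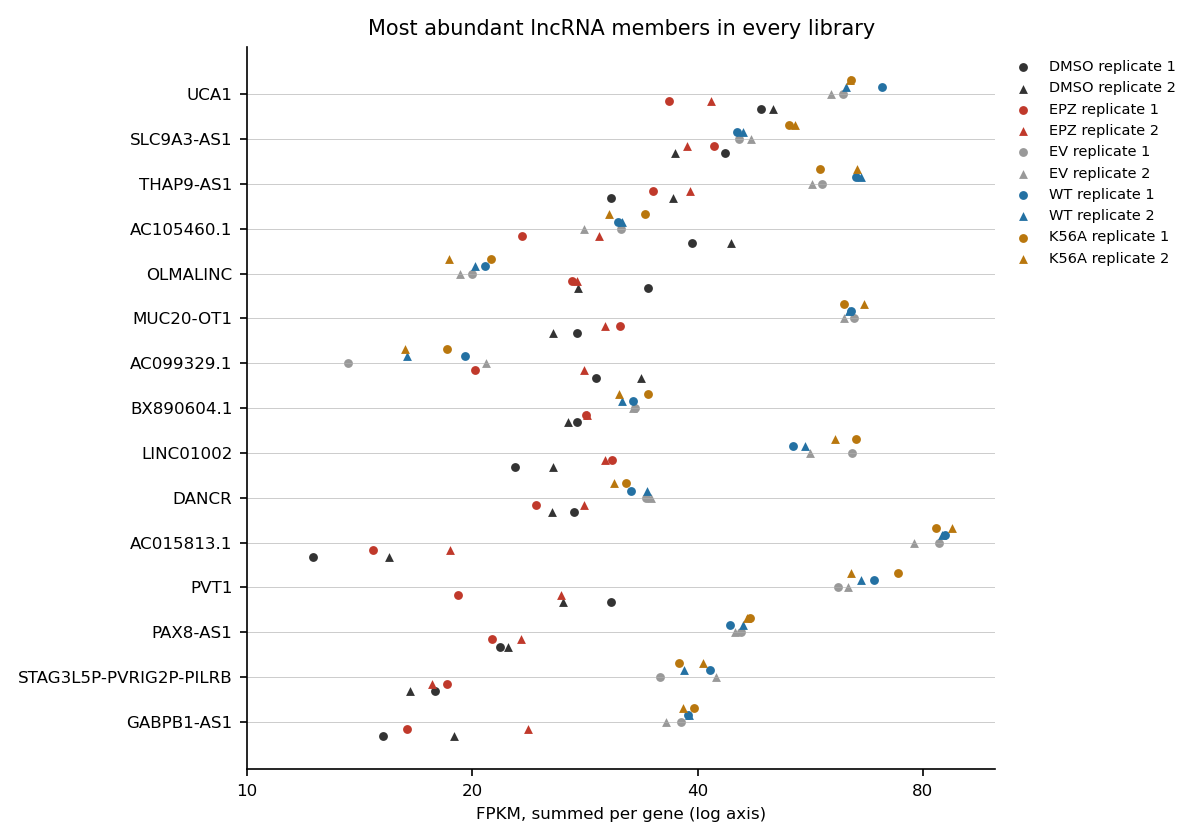
FPKM per gene (log axis) of the members among the 10 most abundant of any table, 1 point per library, coloured by group. AC015813.1 lies at 12.2 to 18.7 FPKM in DMSO and EPZ and at 77.8 to 87.5 in the knockdown lines. Within the inhibitor experiment, the EPZ points of AC105460.1 and UCA1 lie below their DMSO points.

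Most members lie in or beside coding genes. By GENCODE 29, which held 1131 of the 1187 gene IDs, 521 members (43.9%) overlap a coding gene on the opposite strand and 173 (14.6%) overlap one on the same strand. Another 113 (9.52%) start within 1 kb of a coding start and run the other way, 145 (12.2%) lie within 10 kb of a coding gene and 235 (19.8%) lie farther away. Members were short, with few exons. In the K56A table, where 858 of 1061 members had their main transcript in GENCODE 29, the median length was 1046 bases with 2 exons, against 2607 bases and 8 exons for coding genes. Single-exon transcripts made up 33.7% of these members and 2.17% of coding genes.

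The summed FPKM of all members was a small share of the total. It was 0.505% and 0.508% in DMSO and 0.504% and 0.523% in EPZ (exact permutation test over the 4 libraries, two-sided, p = 1). It was 0.816% and 0.798% in EV and 0.837% and 0.823% in WT (exact p = 0.33), and 0.820% and 0.805% in EV and 0.858% and 0.857% in K56A (exact p = 0.33), where 0.33 is the smallest p that 2 against 2 can give. With all genes in the total, WT and K56A libraries lay above their EV libraries, and DMSO and EPZ overlapped. Beside this, mitochondrially encoded genes took 27.9% and 27.5% of FPKM in EV and 25.3% and 25.4% in K56A, and retained intron transcripts 9.77% and 9.68% and 10.3% and 10.3%. With mitochondrial genes left out of the total, the share was 0.611% and 0.616% in DMSO and 0.618% and 0.648% in EPZ, which no longer overlapped (exact p = 0.33). It was 1.13% and 1.10% in EV and 1.16% and 1.13% in WT, which then overlapped (exact p = 0.67). K56A stayed above EV, by 0.0262 percentage points against 0.0454 with mitochondrial genes. So which groups overlapped depended on the total used.

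No member passed the test in any comparison. In limma's fit of log2(FPKM + 0.5) per gene, with Benjamini-Hochberg adjustment over all genes tested and a threshold of 0.05, 0 of 731 members were called in EPZ versus DMSO (0.0077% of all genes were), 0 of 1046 in WT versus EV (0.0736%) and 0 of 1061 in K56A versus EV (0.154%). At an unadjusted p under 0.05, limma counted 64 members (8.76%, against 5.86% of all genes) in EPZ, 79 (7.55%, against 11.9%) in WT and 89 (8.39%, against 13.5%) in K56A. Over all genes, 3 (0.0221%) were called higher and 7 (0.0515%) lower in WT, and 5 (0.0367%) higher and 16 (0.118%) lower in K56A. With libraries rescaled by their median ratio these became 4 and 34 in WT and 7 and 47 in K56A, with 0 members called in each. In EPZ, 1 gene was called, lower, under both scalings.

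Replicates of members lay farther apart than those of other genes. The median SD between replicates was 0.21, 0.14 and 0.15 on the log2 scale for members in EPZ, WT and K56A, against 0.14, 0.08 and 0.08 for all genes and 0.17, 0.11 and 0.11 for coding genes in the same range of levels. The 95% interval of the median member reached 0.53, 0.40 and 0.39 log2 units to either side. Among members at 10 FPKM or more it reached 0.34, 0.18, 0.18 in the same order, which is 1.26, 1.14, 1.14-fold. The median log2 fold change of members was 0.04, 0.04 and 0.05, beside 0.00, 0.02 and 0.03 for all genes tested and 0.03, 0.03 and 0.04 for coding genes in the same range of levels. After rescaling by the median ratio it was 0.02 in K56A. Groups did not overlap for 288 members (39.4%, against 37.5% of all genes), 390 (37.3%, against 43.2%) and 409 (38.5%, against 45.2%).

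**Figure D2:**
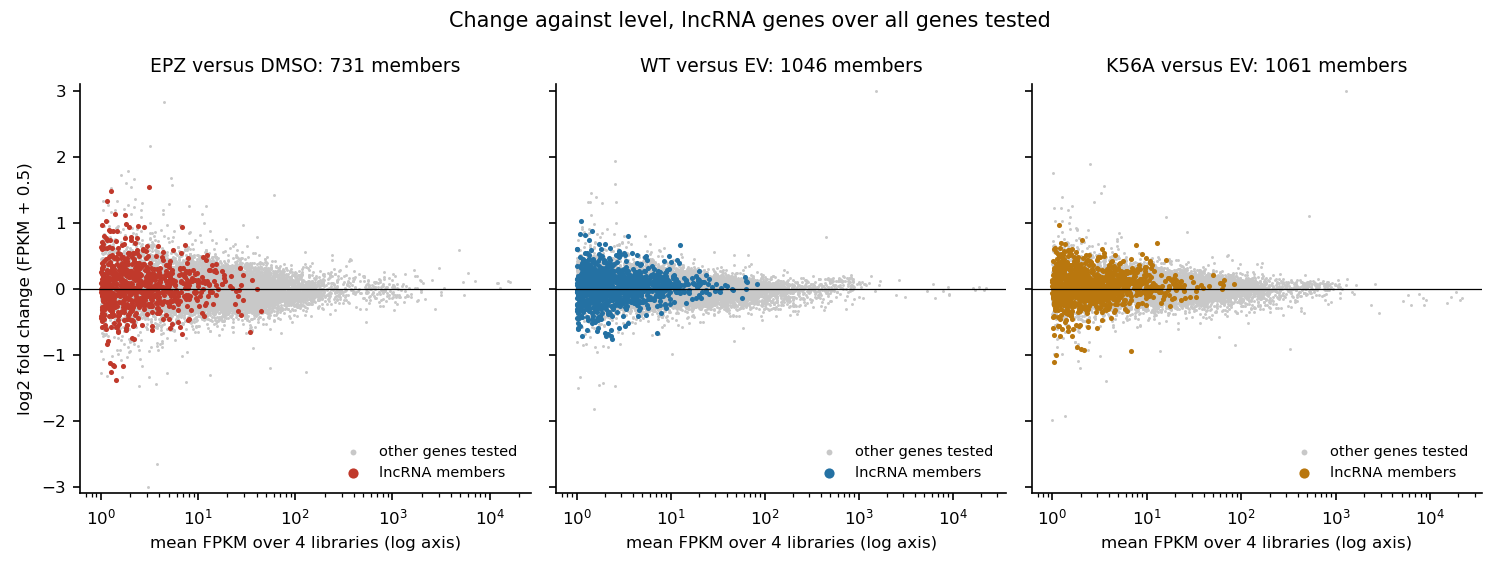
Log2 fold change of FPKM + 0.5 against mean FPKM (log axis) in the 3 comparisons, with members in colour over all other genes tested in grey. Genes beyond 3 log2 units are drawn at 3. Members spread widely at low levels and less above 10 FPKM, and none passed the test.

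In EPZ versus DMSO, AC105460.1, an uncharacterised gene at chr4:103550586-103559277, minus strand (ENSG00000250920), was the abundant member among the 5 with the smallest p below DMSO. It stood at 39.3 and 44.4 FPKM in DMSO against 23.3 and 29.6 in EPZ. The groups did not overlap, and the log2 fold change was -0.66 (SE 0.15, limma adjusted p = 0.753). In the knockdown tables it stood at 28.2 to 34.1 FPKM, with groups that overlapped. Its nearest coding gene, TACR3, lies 26754 bases away.

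The other members with the smallest p below DMSO were low. The EPZ means of AC004080.5, AC011825.3 and AC011498.2 were under 1 FPKM, so these met the limit for a member only through the DMSO libraries. AC004080.5, at chr7:27147366-27152598, minus strand, overlaps the homeobox gene HOXA3 on the same strand and stood at 2.24 and 1.83 FPKM in DMSO against 0.817 and 0.485 in EPZ. Its log2 fold change was -1.15 (SE 0.27), beside -0.48 (SE 0.16) for HOXA3, at 6.97 and 7.27 in DMSO and 5.46 and 4.52 in EPZ, and neither passed. AC011825.3, on the strand of the ubiquitin ligase gene RNF125, stood at 2.76 and 2.32 FPKM in DMSO against 0.760 and 0.947 in EPZ, while RNF125 stood at 2.62 and 3.33 in DMSO and 3.17 and 3.48 in EPZ. The lncRNA groups did not overlap there, as choosing by p makes likely, and those of RNF125, which was not chosen so, did. AC011498.2, opposite UBXN6, stood at 2.12 and 1.94 FPKM in DMSO against 0.398 and 0.925 in EPZ. AL645608.7, beside HES4, stood at 4.40 and 3.92 FPKM in DMSO against 2.57 and 2.46 in EPZ, and its log2 fold change was -0.62 (SE 0.18).

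Above DMSO, PPP4R3B-DT, which starts at the phosphatase subunit gene PPP4R3B and runs the other way, stood at 0.691 and 1.21 FPKM in DMSO against 2.40 and 2.84 in EPZ. Its log2 fold change was 1.13 (SE 0.26), beside 0.24 (SE 0.15) for PPP4R3B, and neither passed. In the knockdown tables PPP4R3B-DT stood at 1.43 to 1.69 FPKM. AL390726.3 stood at 0.0978 and 0.879 FPKM in DMSO against 2.29 and 1.83 in EPZ, and AC078923.1 at 0.645 and 0.737 FPKM in DMSO against 1.69 and 1.75 in EPZ. AL138689.1, on the strand of the ephrin gene EFNB2, stood at 0.618 and 0.449 FPKM in DMSO against 1.67 and 1.39 in EPZ. Groups did not overlap for these members, and their DMSO means were under 1 FPKM, so they met the limit for a member only through the EPZ libraries. Over 2-fold on the log2 scale, 12 members (1.64%, against 0.516% of all genes) differed in EPZ, 1 (0.0956%, against 0.125%) in WT and 2 (0.189%, against 0.176%) in K56A. Members at 10 FPKM or more ran only from -0.66 to 0.51 in EPZ. The median level was 2.24 FPKM for members and 13.1 for all genes, and no share among genes of similar level was computed. Most of the 12 members over 2-fold in EPZ met the limit for a member through 1 group only. They include AL390726.3, PPP4R3B-DT, LINC00326, SAP30-DT and AL591895.1 above DMSO. Below DMSO they include AC004080.5, AC011825.3, AC011498.2, MIR600HG, AC010422.7 and AC148477.3. So the share of 1.64% is not independent of how members were chosen.

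Leaving out 1 library changed the calls of the inhibitor experiment. Without DMSO replicate 1, limma called 13 of 731 members (1.78%, against 0.662% of all genes), 7 higher and 6 lower. It then counted 77 members (10.5%, against 4.93%) at an unadjusted p under 0.05 and 11 (1.5%, against 0.393%) over 2-fold. Among those called were AC105460.1 (log2 fold change -0.75, adjusted p = 0.00100), AC011825.3 (-1.06), AC011498.2 (-1.11) and AL138689.1 (1.09). Without DMSO replicate 2 it called 116 (15.9%, against 12.1%), 72 higher and 44 lower, and these same 4 members were among them, with AC105460.1 at -0.57. Without EPZ replicate 1 it called 1 (0.137%, against 0.292%), CU633904.1, and without EPZ replicate 2 it called 4 (0.547%, against 0.285%), AC010655.4, LIPE-AS1, MIR600HG and AC010422.7. In each such fit the lone library is assumed to vary like the pair of the other group. AC011825.3, AC011498.2 and AL138689.1 met the limit for a member only through the group where they were high. So did AC148477.3, VIM-AS1 and PRANCR, also called without DMSO replicate 1, and MIR600HG and AC010422.7. The limit was set on all libraries of the table, also the one then left out.

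In WT versus EV the member with the smallest p was LINC01184 (ENSG00000245937, chr5:127939152-128083172, minus strand), opposite CCDC192. It stood at 7.44 and 7.04 FPKM in EV against 9.85 and 9.83 in WT, and its log2 fold change was 0.42 (SE 0.09, limma adjusted p = 0.150). In K56A it stood at 7.17 and 8.12, which overlaps EV, and the difference between WT and K56A was not tested. In DMSO it stood at 13.3 and 13.0 and in EPZ at 10.9 and 13.5.

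LINC00894, on chromosome X, had the smallest p below EV in WT. It stood at 4.05 and 4.04 FPKM in EV against 2.46 and 2.67 in WT, with a log2 fold change of -0.57 (SE 0.13, limma adjusted p = 0.167), and at 2.48 and 3.07 in K56A (-0.48, adjusted p = 0.238), against the same EV libraries. In DMSO and EPZ it stood at 0.236 to 0.732 FPKM, under the limit for a member. DNAJC9-AS1, beside the co-chaperone gene DNAJC9, stood at 1.88 and 2.43 FPKM in EV against 1.25 and 1.26 in WT, while DNAJC9 stood at 21.4 and 22.9 FPKM in EV against 21.4 and 23.5 in WT. It also overlaps CFAP70 on the opposite strand, which stood at 6.83 and 7.15 in EV and 8.93 and 8.68 in WT. The antisense groups did not overlap, as choosing by p makes likely, and those of DNAJC9, not chosen so, did. Those of CFAP70 did not overlap either and lay the other way, with a log2 fold change of 0.31 (SE 0.09). AC007566.1 stood at 2.97 and 4.06 FPKM in EV against 2.01 and 2.26 in WT. AC004918.1, opposite the acylglycerol kinase gene AGK, stood at 4.99 and 5.54 FPKM in EV against 4.13 and 3.52 in WT, and AL627309.1, whose copies elsewhere make it uncertain, at 2.80 and 3.07 FPKM in EV against 1.92 and 1.54 in WT.

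Above EV in WT, AL354836.1, opposite the proteasome ubiquitin receptor gene ADRM1, stood at 2.41 and 2.60 FPKM in EV against 3.74 and 4.03 in WT, while ADRM1 stood at 67.1 and 73.0 in EV and 64.8 and 68.4 in WT. AC131009.3, on the strand of the pseudouridine synthase gene PUS1, stood at 2.80 and 2.43 FPKM in EV against 3.83 and 4.06 in WT, while PUS1 stood at 33.4 and 37.4 in EV and 34.6 and 37.2 in WT. At both loci the lncRNA groups did not overlap, as choosing by p makes likely, and those of the coding genes, not chosen so, did. AC025176.1 stood at 0.898 and 0.881 FPKM in EV against 1.59 and 2.07 in WT. Its EV mean was 0.889 FPKM, so it met the limit for a member there only through the WT libraries.

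In K56A versus EV, AL645608.7 came nearest to the threshold (ENSG00000272512, chr1:995966-998051, minus strand), 911 bases from HES4, a gene of the HES family of transcriptional repressors. It stood at 13.4 and 13.9 FPKM in EV against 18.6 and 18.6 in K56A. The log2 fold change was 0.43 (SE 0.07, 95% interval 0.27 to 0.59, limma adjusted p = 0.0848). In WT it stood at 14.4 and 13.9, close to EV, with a log2 fold change of 0.05 (SE 0.07). HES4 stood at 22.4 and 23.0 in EV and 31.6 and 24.8 in K56A (0.30, SE 0.11, adjusted p = 0.308).

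AL645608.7 passed in 2 other fits. In a single limma fit of the 6 knockdown libraries its adjusted p was 0.0305 and that of LINC00326 was 0.0480 (2 of 936 members, 0.214%, against 0.705% of all genes). With only genes at a mean FPKM of at least 3, its adjusted p was 0.0372 (1 of 408 members, 0.245%, against 0.822%). Its log2 fold change was 0.43 in both. In the authors' deposited table its transcript has a log2 fold change of 0.41 and an adjusted p of 0.000118.

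JPX, a noncoding activator of XIST in the X inactivation centre, stood at 8.46 and 9.95 FPKM in EV against 12.4 and 12.6 in K56A, and its log2 fold change was 0.43 (SE 0.10, limma adjusted p = 0.159). In the WT table it stood at 9.32 and 10.6 FPKM in EV against 12.3 and 15.1 in WT (0.44, SE 0.11, adjusted p = 0.222). In DMSO it stood at 4.84 and 6.34 and in EPZ at 6.04 and 6.12, which overlap. FTX, its neighbour in that region, stood at 15.97 and 15.99 FPKM in EV against 18.2 and 17.8 in K56A (0.17, SE 0.07), and at 6.79 and 6.24 FPKM in DMSO against 8.14 and 9.34 in EPZ (0.40, SE 0.15). Neither gene passed in any comparison.

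SPRY4-AS1 had the smallest p below EV in K56A. It lies opposite SPRY4, a feedback inhibitor of receptor tyrosine kinase signalling, and its promoter is printed above with 2 GC boxes. It stood at 3.03 and 2.49 FPKM in EV against 1.12 and 1.35 in K56A, and its log2 fold change was -0.91 (SE 0.17, limma adjusted p = 0.110). SPRY4 stood at 37.5 and 39.5 FPKM in EV against 39.4 and 39.7 in K56A, so its groups overlapped. In the WT table it stood at 2.87 and 2.29 FPKM in EV against 0.752 and 2.29 in WT, and the groups overlapped.

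AC084125.4, opposite the DNA helicase gene RECQL4 on chromosome 8, stood at 2.73 and 3.33 FPKM in EV against 1.09 and 1.64 in K56A (-0.93, SE 0.19). RECQL4 stood at 103 and 102 in EV and 118 and 120 in K56A, a log2 fold change of 0.22 (SE 0.04, limma adjusted p = 0.113), on the other side of 0. AL137800.1 stood at 2.05 and 1.75 FPKM in EV against 1.12 and 0.956 in K56A, and AC011462.4 at 2.65 and 3.102 FPKM in EV against 1.80 and 1.996 in K56A. AC138035.1 stood at 9.38 and 9.26 FPKM in EV against 11.5 and 13.2 in K56A, but at 9.87 and 9.02 in WT. FP236241.1, on chromosome 21 in sequence with close copies and so uncertain, stood at 8.15 and 11.6 FPKM in EV against 16.4 and 15.9 in K56A, and at 14.03 and 17.1 in WT. Leaving out 1 library at a time, limma called 2 members without EV replicate 1, 3 without EV replicate 2, 1 without K56A replicate 1 and 2 without K56A replicate 2. These were 0.189%, 0.283%, 0.0943% and 0.189% of members, against 0.448%, 0.565%, 0.338% and 0.286% of all genes. They were CU633967.1 and AC012321.1, then FP236241.1, MRPL20-AS1 and AC132872.5, then ILRUN-AS1, then AL671762.1 and AL512356.1.

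LINC00326 was among the 5 members with the smallest p above the control in each comparison (ENSG00000231023, chr6:132954530-133106591, plus strand, 134007 bases from its nearest coding gene, EYA4). It stood at 0.485 and 0.929 FPKM in DMSO against 2.06 and 2.16 in EPZ, and its log2 fold change was 1.14 (SE 0.27, limma adjusted p = 0.753). It stood at 0.629 and 0.661 FPKM in EV against 1.66 and 1.42 in WT (0.83, SE 0.19, adjusted p = 0.182), and at 0.629 and 0.660 FPKM in EV against 1.64 and 1.84 in K56A in the other table (0.97, SE 0.18, adjusted p = 0.116). WT and K56A share their EV libraries. All DMSO and EV values were under 1 FPKM, so LINC00326 met the limit for a member only through the EPZ, WT and K56A libraries, and its place above the control in each table is not independent of how members were chosen.

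**Figure D3:**
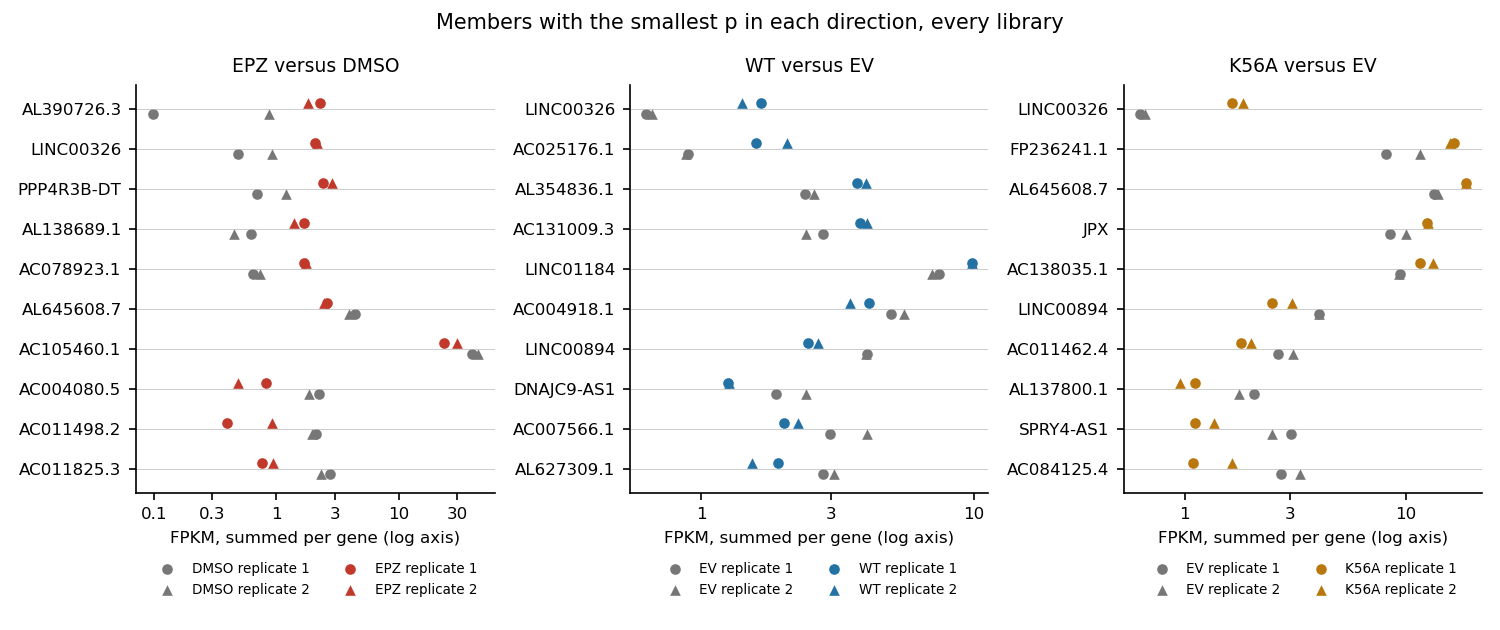
FPKM per gene (log axis) in every library for the 5 members with the smallest p in each direction of each comparison, controls in grey and the other group in colour. Groups do not overlap for any member shown, as choosing by p makes likely, and no member passed the adjusted threshold.

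Lists of lncRNA genes with a known setting gave 0 calls by limma in each comparison. Of lncRNAs tied to colorectal cancer and MYC, 19 of 32 were members in each table. Their median log2 fold change was -0.15 in EPZ (5 of 19 above 0), 0.07 in WT (14 of 19) and 0.08 in K56A (12 of 19), beside 0.00, 0.02 and 0.03 for all genes. At an unadjusted p under 0.05, 3, 1 and 1 of the 19 were counted, beside 5.86, 11.9 and 13.5% of all genes. Without DMSO replicate 1 the EPZ median was -0.11, with 6 above 0. PVT1 stood at 30.6 and 26.4 FPKM in DMSO against 19.2 and 26.3 in EPZ, and at 61.6 and 63.6 FPKM in EV against 68.9 and 66.1 in WT. CYTOR, an lncRNA tied to the cytoskeleton, stood at 28.0 and 23.5 FPKM in DMSO against 22.1 and 21.8 in EPZ, and DANCR, known for holding back differentiation, at 27.4 and 25.5 FPKM in DMSO against 24.3 and 28.2 in EPZ. EPZ lay below DMSO in CYTOR and only narrowly so in PVT1, at 26.3 against 26.4 FPKM in the nearest libraries, and DANCR overlapped. None of these passed the test.

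Of p53-responsive lncRNAs, 5, 6 and 6 of 18 were members, with median log2 fold changes of 0.07, 0.00 and -0.08 and 0, 0 and 1 at an unadjusted p under 0.05, where 5.86, 11.9 and 13.5% of all genes stood. PURPL, an lncRNA induced by p53, stood at 4.62 and 4.57 FPKM in DMSO against 4.68 and 5.10 in EPZ, and at 13.3 and 10.9 FPKM in EV against 12.0 and 12.4 in WT. MIR34AHG, host of the p53-induced miR-34a, stood at 2.87 and 1.98 FPKM in DMSO against 2.08 and 2.08 in EPZ, 5.38 and 6.04 in EV, at 5.44 and 6.12 in WT and at 5.95 and 6.44 in K56A. Its groups overlapped in all 3 comparisons. Of lncRNAs tied to DNA damage and repair, 4, 5 and 5 of 19 were members, with medians of 0.19, -0.02 and -0.09. LINC00963 stood at 10.1 and 12.2 FPKM in DMSO against 12.1 and 12.0 in EPZ, and at 23.4 and 25.9 FPKM in EV against 29.001 and 25.6 in WT. Its groups likewise overlapped in all 3 comparisons.

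Of lncRNAs of the HOX clusters, 4, 5 and 4 of 18 were members, with medians of 0.06, 0.34 and 0.08. HOTAIRM1, from the HOXA cluster, stood at 14.2 and 11.4 FPKM in DMSO against 14.6 and 12.1 in EPZ, at 9.67 and 9.38 FPKM in EV against 6.94 and 9.16 in WT and at 10.1 and 10.3 in K56A. HOXA10-AS stood at 14.2 and 15.9 FPKM in DMSO against 16.5 and 14.8 in EPZ, with HOXA10 at 18.4 and 20.8 FPKM in DMSO against 18.7 and 20.5 in EPZ, and both overlapped. HOXA-AS2 stood at 4.57 and 4.08 FPKM in DMSO against 3.14 and 3.76 in EPZ, and at 4.32 and 2.76 FPKM in EV against 4.93 and 5.43 in WT (0.52, SE 0.19, limma adjusted p = 0.349). In all, 3 of 4 HOX lncRNAs lay above 0 in EPZ, 4 of 5 in WT and 4 of 4 in K56A, beside 50.1, 54.7 and 59.4% of all genes. At an unadjusted p under 0.05, limma counted 1, 2 and 0 of them, beside 5.86, 11.9 and 13.5% of all genes.

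Of lncRNAs tied to stress, hypoxia and metabolism, 7, 6 and 6 of 20 were members. All 7 had a log2 fold change above 0 in EPZ, with a median of 0.21, beside 50.1% of all genes above 0, and 6 had without DMSO replicate 1. The medians were 0.07 in WT and 0.05 in K56A. Groups did not overlap in EPZ for 1 of them, beside 37.5% of all genes. This was LUCAT1, at 2.02 and 1.94 FPKM in DMSO against 2.67 and 2.62 in EPZ. GABPB1-AS1, at the start of the transcription factor gene GABPB1, stood at 15.2 and 18.9 FPKM in DMSO against 16.4 and 23.7 in EPZ, with GABPB1 at 7.24 and 8.52 FPKM in DMSO against 6.48 and 6.06 in EPZ. MIR210HG, host of the hypoxia-induced miR-210, stood at 7.61 and 4.25 FPKM in DMSO against 7.11 and 7.15 in EPZ. CHASERR, which restrains its neighbour CHD2, stood at 11.0 and 22.0 FPKM in DMSO against 17.7 and 20.4 in EPZ, and its DMSO replicates lay farther apart than the group means.

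Of chromatin and dosage lncRNAs, 11, 12 and 11 of 18 were members, with medians of 0.12, 0.05 and 0.13 and 9, 8 and 10 above 0, where 50.1, 54.7 and 59.4% of all genes lay. Without DMSO replicate 1 the EPZ median of these was -0.04, with 4 of 11 above 0, so its sign changed. Of immune and interferon lncRNAs, 5, 6 and 6 of 20 were members, with medians of 0.15, -0.07 and -0.04. In that list PSMA3-AS1, antisense to the proteasome subunit gene PSMA3, stood at 8.61 and 11.8 FPKM in DMSO against 13.3 and 15.9 in EPZ (0.51, SE 0.18), while PSMA3 stood at 79.5 and 87.6 FPKM in DMSO against 74.96 and 86.9 in EPZ and overlapped. Of neighbours of immediate early and transcription cycle genes, 0, 2 and 2 of 24 were members. CCNT2-AS1, beside CCNT2, which encodes a cyclin partner of CDK9, stood at 0.795 and 1.26 FPKM in EV against 1.22 and 1.302 in WT, and ID2-AS1 at 1.14 and 0.796 FPKM in EV against 1.16 and 1.09 in WT.

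MicroRNA hosts by name numbered 14, 18 and 18 members, with median log2 fold changes of -0.06, 0.09 and 0.09, 6, 12 and 12 above 0 and 0 called by limma (2, 2 and 0 at an unadjusted p under 0.05). Of all genes, 50.1, 54.7 and 59.4% lay above 0 and 5.86, 11.9 and 13.5% had an unadjusted p under 0.05. MIR4435-2HG was the most abundant in the inhibitor table, at 13.2 and 14.7 FPKM in DMSO against 14.5 and 12.6 in EPZ, and MIR100HG in the knockdown tables. MIR100HG, host of the let-7a, miR-100 and miR-125b printed above, stood at 21.8 and 22.2 FPKM in EV against 25.6 and 25.5 in WT (0.21, SE 0.06, limma adjusted p = 0.239), at 23.8 and 23.9 in K56A, and at 7.95 and 9.92 FPKM in DMSO against 9.83 and 9.88 in EPZ. MIR222HG stood at 9.80 and 10.8 FPKM in DMSO against 7.26 and 11.3 in EPZ, at 19.6 and 17.4 FPKM in EV against 21.6 and 19.6 in WT and at 21.1 and 20.3 in K56A. MIR200CHG, host of the epithelial miR-200c and miR-141, stood at 1.18 and 1.18 FPKM in DMSO against 2.09 and 2.65 in EPZ (0.77, SE 0.23, adjusted p = 0.753), without overlap, and at 3.23 and 5.28 FPKM in EV against 2.32 and 3.23 in WT. MIR17HG stood at 2.89 and 1.60 FPKM in DMSO against 1.18 and 1.76 in EPZ, and at 3.08 and 1.049 FPKM in EV against 2.63 and 2.42 in WT, where the EV replicates lay farther apart than the group means.

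By position, class medians of the log2 fold change ranged from 0.02 to 0.08 in EPZ, 0.03 to 0.04 in WT and 0.03 to 0.06 in K56A, with 0 called by limma in each class. Across pairs of a member and the tested coding gene that it overlaps on the opposite strand, the log2 fold changes had r = 0.08 over 248 pairs in EPZ, 0.05 over 337 pairs in WT and 0.06 over 335 in K56A. For members that overlap on the same strand, r was 0.21 over 90 pairs in EPZ, 0.11 over 139 pairs in WT and 0.00 over 143 in K56A. For members that start within 1 kb of a coding start and run the other way, r was 0.02 over 78 pairs in EPZ, -0.05 over 85 pairs in WT and -0.06 over 86 in K56A. For members within 10 kb of a coding gene, r was -0.06 over 64 pairs in EPZ, 0.20 over 113 in WT and 0.13 over 114 in K56A. For members farther away, r was 0.03 over 79 pairs in EPZ, -0.04 over 120 in WT and 0.16 over 120 in K56A. So values near 0.2 also occurred without overlap. The values of a pair share libraries and may share reads, and these r are descriptions. Members named as divergent transcripts had a median of 0.17 in EPZ (25 of 31 above 0), 0.06 in WT (27 of 41) and 0.05 in K56A (24 of 40). In EPZ without DMSO replicate 1 it was 0.12 (19 of 31). Of all genes, 50.1, 54.7 and 59.4% lay above 0, and 48.3% in EPZ without DMSO replicate 1. Of members divergent by position, 51 of 82, 50 of 93 and 52 of 94 lay above 0, with medians of 0.08, 0.03 and 0.03.

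**Figure D4:**
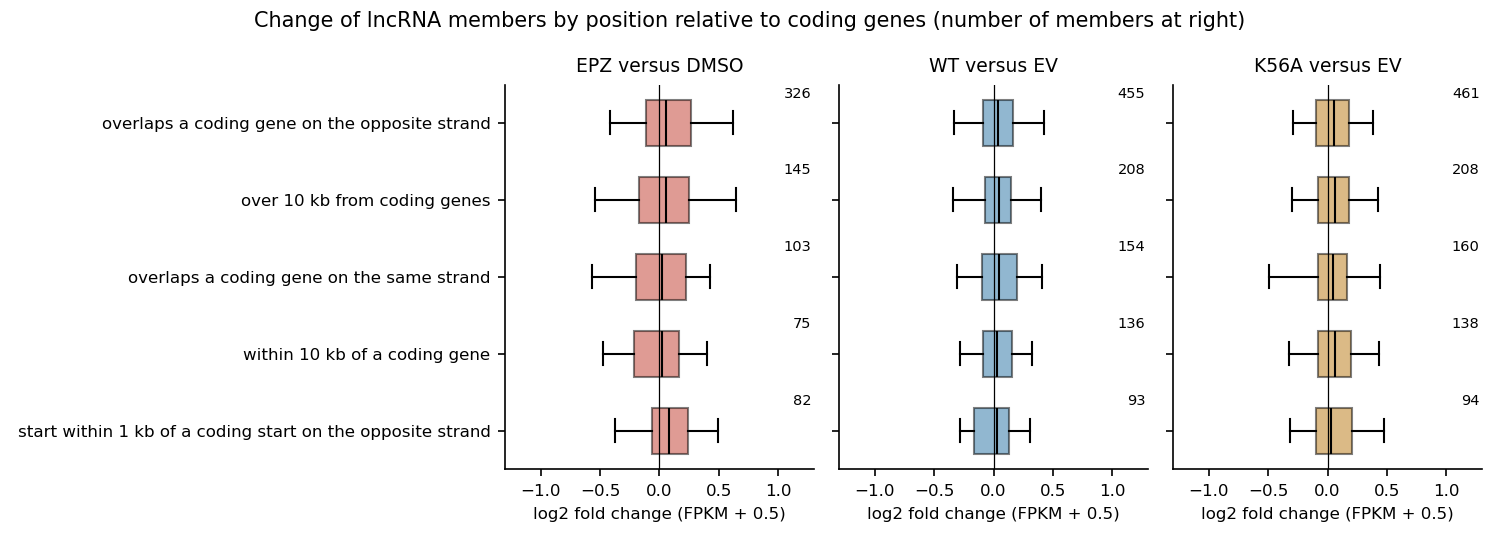
Log2 fold change of members by position relative to coding genes in the 3 comparisons, with a box from the lower to the upper quartile, the median as a line, whiskers from the 5th to the 95th percentile, and the number of members at the right. Class medians lie between 0.02 and 0.08, close to 0 beside the spread of the members.

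The authors' deposited tables test single transcripts, and call some of those of members. At an adjusted p under 0.05, the authors' deposited tables call 10 of 1829 member transcripts in EPZ (0.547%, against 1.19% of all transcripts), 58 of 2781 in WT (2.09%, against 3.33%) and 65 of 2912 in K56A (2.23%, against 3.8%). Of these, 9, 49 and 47 are listed at 0 in both libraries of a group. The examples that follow were chosen after their values were seen. In the authors' deposited table, 1 LOXL1-AS1 transcript is at 0 and 0 FPKM in DMSO against 1.13 and 1.48 in EPZ and another at 1.18 and 1.47 FPKM in DMSO against 0 and 0 in EPZ, while the gene sum had a log2 fold change of 0.07. A JPX transcript in the authors' deposited tables is at 0 and 0 FPKM in EV against 1.43 and 1.51 in WT, and at 1.21 and 1.69 in K56A. A transcript of FLJ20021 is at 1.14 and 0.970 FPKM in EV against 4.56 and 4.47 in K56A in the authors' deposited table, with a log2 fold change of 2.06 there and an adjusted p of 0.00212, while its gene sum had 0.22 (limma adjusted p = 0.403). PINK1-AS, opposite the mitochondrial kinase gene PINK1, is at 10.7 and 10.6 FPKM in EV against 9.16 and 8.93 in WT, and at 9.11 and 8.70 in K56A. The authors' deposited tables give it adjusted p-values of 0.0221 and 0.00281, and limma on the gene sum gave 0.347 and 0.277.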

How the data were processed

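RNA-seq of HCT116 was deposited as 3 tables of 4 libraries each, with FPKM per transcript. The submitters' processing notes name Trim Galore 0.6.6, STAR 2.7.1a, RSEM 1.3.3, DESeq2 1.32.0 and GRCh38 without saying what each did. For annotation release, strand setting and depth, nothing is given in the sources used here. The deposited FPKM values list transcripts above 0 in at least 2 of 4 libraries. The authors' log2 fold changes and p-values per transcript are, per the file headers, from edgeR in the inhibitor table and DESeq2 in the others. The 4 deposited columns of group summaries were not used.

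FPKM was summed per gene, and limma 3.58.1 (R 4.3.3) was fitted per table to log2(FPKM + 0.5) of genes with a mean FPKM of at least 1, with a mean-variance trend, two-sided, and Benjamini-Hochberg adjustment over all genes tested at 0.05. The fitting was tested on simulated data. Shares were compared by exact permutation. Each table has its own normalization and its own list of transcripts, so tests stay within a table, and EV serves both knockdown comparisons. Positions and transcript lengths are from GENCODE 29, matched by identifier, and sequences are from RefSeq (GRCh38.p14). Tables and figures used matplotlib 3.10.9, numpy 2.4.6 and pandas 2.3.3 in Python 3.11.15.

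Members, lists and tests were chosen with earlier results of these data known. Named genes are the 10 most abundant members of each table, the 5 members with the smallest p in each direction of each comparison (since fewer than 5 passed), up to 4 members of each list by mean FPKM, their partner genes, CDK9 and DOT1L. MIR17HG, MIR200CHG, MIR222HG, LOXL1-AS1, FLJ20021, PINK1-AS and members named for a fit without 1 library were chosen after their values were seen. Alternatives were the pseudocount, the filter on low values, the trend, scaling, 1 fit of the 6 knockdown libraries, a replicate block and leaving out each library.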

Additional observations from a re-analysis of the deposited data

How the results depend on the processing

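Of 2188 values of named members over all alternatives, 2165 stayed on the same side of the threshold, 23 passed it only in the alternative and 0 reversed. In EPZ versus DMSO, 0 members were called in every alternative that kept all 4 libraries, and 1 to 116 when 1 library was left out. All genes called there, 1 in the main setting, were 0 with no filter on low values, 0 with no mean-variance trend, 2 with the replicate block and 37 to 1568 with 1 library left out. In WT versus EV, 0 members were called in every alternative. All genes called there, 10 in the main setting, were 61 in 1 fit of the 6 knockdown libraries, 38 after rescaling, 63 at a mean FPKM of at least 3, 2 with no filter, 1 with no trend and 2 (without EV replicate 1; 3 without EV replicate 2) to 12 with 1 library left out. The median of members there was 0.0560 at a mean FPKM of at least 3 and 0.0246 (without EV replicate 2) to 0.0514 with 1 library left out. In K56A versus EV, 2 members were called in the fit of 6 libraries, 1 at a mean FPKM of at least 3 and 1 to 3 with 1 library left out. All genes called there, 21 in the main setting, were 89 in the fit of 6 libraries, 54 after rescaling, 92 at a mean FPKM of at least 3, 5 with no filter, 1 with no trend, 47 with the replicate block and 39 to 77 with 1 library left out. The median of members there was 0.0248 after rescaling, 0.0561 at a mean FPKM of at least 3, 0.0599 with a pseudocount of 0.1 and 0.0296 to 0.0565 with 1 library left out. With mitochondrial genes left out of the total, the difference in the share of members was 0.0191 percentage points in EPZ and 0.0262 in K56A. With 1 library left out, it ran from -0.00272 to 0.0161 in EPZ, and so changed sign, and stayed above 0 in WT and K56A. A filter at 3 tests fewer genes. The causes of the other differences were not tested.

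The labels share replicate numbers across groups, and the deviations of same-numbered libraries had r = 0.257 in EPZ versus DMSO, 0.00447 in WT versus EV and -0.0334 in K56A versus EV, with 2 libraries a group. No label ties a number to a shared culture, batch or day, so the numbers were not taken as a pairing, although same-numbered libraries of the inhibitor experiment deviated together. The replicate block called 0 members in each comparison, and 9 genes in WT versus EV. With it the smallest adjusted p of a member was 0.0979 in EPZ, 0.0901 in WT and 0.0619 in K56A, against 0.753, 0.150 and 0.0848 without it (limma). The planned sum over all rows of a gene gives the same values by construction, since the biotype is set per gene. With no counts, the error of a low member cannot be split into counting error and other spread.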

Other observations

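Some members had replicates far apart, and were chosen after their values were seen. AL671762.1, on chromosome 6, stood at 18.7 and 18.6 FPKM in EV and at 9.95 and 24.0 in K56A. CU633904.1, on chromosome 21 in sequence with close copies and so uncertain, stood at 5.94 and 12.4 in EV and 5.49 and 3.28 in K56A, and at 2.11 and 7.88 in DMSO and 7.03 and 10.1 in EPZ. MIR600HG stood at 2.08 and 1.60 in DMSO, and is listed at 0 in 1 EPZ library and at 1.37 in the other.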
